A study of Mus musculus with 4 samples.

Results

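The inter-alpha-trypsin inhibitor family was followed in flow-sorted AEC2, the alveolar epithelial cells that make surfactant and act as progenitors in the lung. Its members were all probe sets whose platform annotation gave 1 of the 6 symbols Itih1, Itih2, Itih3, Itih4, Itih5 and Ambp and no other. This rule took 8 of 45101 probe sets, and 6 of 18194 genes with a probe set of 1 symbol. Itih5 had 3 probe sets and each other member had 1.

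There were 4 groups, each measured on 1 Affymetrix array: wild-type untreated mice, TLR4-/- untreated mice, wild-type mice 4 days after bleomycin, and TLR4-/- mice 4 days after bleomycin. TLR4-/- mice lack the Toll-like receptor that senses bacterial lipopolysaccharide and has been studied as a receptor for hyaluronan, and bleomycin is a drug that injures the alveolar epithelium. AEC2 of 4 to 5 lungs were pooled per array, so animals could not be told apart and the spread within a group was not measured. Not given in the sources used here are the strain, age and sex of the mice, the mutant allele, and the dose and route of bleomycin.

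Itih1 to Itih4 encode heavy chains, which are secreted plasma proteins made mainly in the liver. Ambp encodes a precursor that is cut into alpha-1-microglobulin and bikunin, a Kunitz-type inhibitor of serine proteases that carries a chondroitin sulfate chain. Heavy chains 1 to 3 are joined to bikunin through that chain, and the enzyme TSG-6, encoded by Tnfaip6, can pass them on to hyaluronan, which then forms cross-linked matrices. Heavy chain 4 is not joined to bikunin and is an acute phase protein. The Itih5 product is a heavy chain relative found in matrix-rich tissues.

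Itih4, Itih3 and Itih1 lie next to each other on chromosome 14, Itih2 and Itih5 are neighbours on chromosome 2, and Ambp is on chromosome 4, in RefSeq's GRCm38.p6 gene table. The 250 bases before the start of the 3 chromosome 14 genes are shown because Itih1 and Itih4 moved in the same direction after bleomycin and Itih3 lies between them. Each runs 5′ to 3′ on the gene's own strand, from RefSeq's GRCm38.p6 promoter table, in which all 6 members were found. Capitals mark matches to the 8 motifs searched.
Itih1, chr14:30943290-30943539, minus strand: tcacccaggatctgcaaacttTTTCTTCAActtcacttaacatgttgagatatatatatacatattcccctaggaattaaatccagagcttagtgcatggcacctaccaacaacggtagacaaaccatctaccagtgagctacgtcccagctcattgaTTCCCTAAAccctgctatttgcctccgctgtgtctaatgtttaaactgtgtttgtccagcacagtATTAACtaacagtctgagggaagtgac
Itih3, chr14:30923588-30923837, minus strand: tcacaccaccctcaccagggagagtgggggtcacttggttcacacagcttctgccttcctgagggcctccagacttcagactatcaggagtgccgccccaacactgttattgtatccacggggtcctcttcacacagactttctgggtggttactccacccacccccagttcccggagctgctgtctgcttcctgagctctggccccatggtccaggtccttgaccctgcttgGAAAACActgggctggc
Itih4, chr14:30886226-30886475, plus strand: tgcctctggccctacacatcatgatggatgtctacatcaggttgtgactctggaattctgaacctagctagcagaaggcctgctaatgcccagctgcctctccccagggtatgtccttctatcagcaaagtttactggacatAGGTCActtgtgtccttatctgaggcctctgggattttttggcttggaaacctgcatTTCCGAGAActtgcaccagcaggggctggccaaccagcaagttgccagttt

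The motifs were searched on both strands. They were a TATA box TATAAA, STAT TTCNNNGAA, TTNCNNNAA, FOXA TGTTTNC, HNF1 core GTTAAT, nuclear receptor core AGGTCA, NKX2-1 CACTTGA and AP-1 TGANTCA. TTNCNNNAA was meant for C/EBP, but its spacing is not that of the C/EBP consensus, so its matches are not read as C/EBP sites. STAT, FOXA, HNF1 and nuclear receptors act on acute phase and liver genes, and NKX2-1 is the lineage factor of AEC2. Itih4 held TTCCGAGAA at 51 to 43 bases before its start. These letters match the STAT motif, which was in 7.02% of 32851 promoter windows of this length, and also TTNCNNNAA, which was in 32.9%. A nuclear receptor core, found in 14% of windows, stood at 108 to 103 bases in Itih4. Itih1 had 2 TTNCNNNAA matches, TTTCTTCAA at 229 to 221 bases and TTCCCTAAA at 92 to 84. It also had an HNF1 core at 27 to 22 bases, a motif in 6.43% of windows. Itih3 had 1 match, to FOXA at 17 to 11 bases (17.8% of windows). No motif was thus matched in all 3 windows, and the windows of Itih1 and Itih4 shared only TTNCNNNAA. TATAAA (12.4% of windows) and CACTTGA (2.68%) had no match in any member's window. Of the other members, Itih2 matched TTNCNNNAA and AP-1 (6.75% of windows), Ambp matched TTNCNNNAA, FOXA and the nuclear receptor core, and Itih5 had 0 matches. These matches are descriptions of letters, not of bound sites.

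The values are log2 signals, 1 per probe set and array, and a difference of 1 is 2-fold. The array medians were 6.93 to 6.98, and arrays correlated across probe sets with a Pearson's r of 0.973 to 0.992, the 2 day 4 arrays most closely. A difference between 2 arrays had a standard deviation of 0.228 over the genes bright enough to be tested below. This is the typical value limma estimated from how far the responses of the genotypes differed, not from replicate arrays. Over all genes it was 0.192. Of 4 Tlr4 probe sets, 1 was lower in TLR4-/-, by 3.09-fold untreated and 6.42-fold at day 4. The mutant pools read higher on another 2, by 0.41 to 0.66, and 1 was dim on every array (3.89 to 4.05). Which of them lie in the deleted part is unknown, so those outside it check nothing. AEC2 markers were bright (12 of 13 listed were on the array, mean 12.05 to 12.41). The Y-linked gene Eif2s3y was at 6.82 and 6.86 untreated against 8.85 and 8.87 at day 4, and the sex of the mice is not given. Kdm5d, also Y-linked, read 6.78 and 6.55 untreated and 7.80 and 7.83 at day 4, and Uty was likewise higher at day 4 in both genotypes. The sex-linked gene Xist read 11.41 and 11.30 untreated and 10.79 and 10.04 at day 4. These genes differed along with treatment, so the part of sex in the results was not tested and cannot be told apart from that of bleomycin.

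After bleomycin the heavy chain genes Itih1 and Itih4 fell. Itih3 was lower without passing a test, and Itih2, Itih5 and Ambp stayed close to their untreated signals or moved in opposite directions in the genotypes. Only 2 of the 6 members, Itih1 and Itih4, had a mean signal above 7.05, the median over all genes, which was the filter for testing. Both of these 2 fell and 0 rose in limma's additive model of treatment and genotype (adjusted p under 0.05), where 2.53% of 9097 genes fell and 7.18% rose. Without the filter, 0 of the 6 members were called, against 0.264% of 18194 genes that fell and 1.75% that rose. The unadjusted limma p-values there were 0.00183 for Itih1 and 0.00803 for Itih4.

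**Figure D1:**
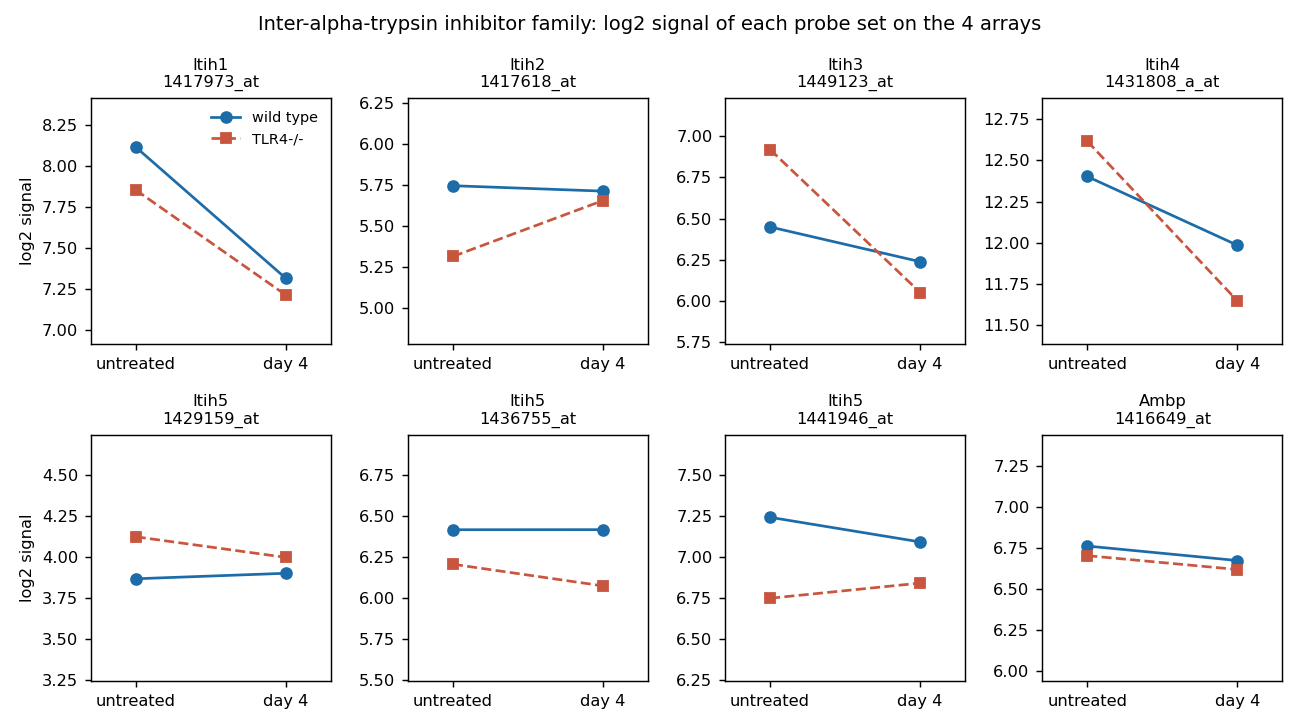
Log2 signal of each of the 8 probe sets (y axis, the same span of 1.5 log2 units in each panel) in untreated mice and 4 days after bleomycin (x axis), with circles and solid lines for wild type and squares and dashed lines for TLR4-/-. Every point is 1 array. Both lines descend for Itih1, Itih3 and Itih4, and those of Itih5 and Ambp span at most 0.49.

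Itih1 encodes heavy chain 1. Its signal was 8.11 in wild-type and 7.85 in TLR4-/- untreated cells, and 7.31 and 7.21 at day 4. Both day 4 arrays lay below both untreated arrays, and the gap between them, 0.54, was wider than the spread of 0.228. The day 4 arrays differed by 0.10, within that spread, and the untreated arrays by 0.26, just outside it. The day 4 signal was 1.74-fold lower in wild type and 1.56-fold lower in TLR4-/-. Over both genotypes Itih1 fell by 0.72 ± 0.16 (SE, limma, lower in 2 of 2 genotypes, adjusted p = 0.0123).

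Itih4 encodes heavy chain 4 and, unlike heavy chains 1 to 3, carries no link to bikunin. It read 12.40 in wild-type and 12.62 in TLR4-/- untreated cells, against 11.98 and 11.64 at day 4. The treatments again did not overlap, with a gap of 0.42 between the lower untreated and the higher day 4 array. The share of all genes whose treatments separate in this way was not counted, so the separation of Itih1 and Itih4 is a description only. The TLR4-/- arrays were the highest and the lowest of the 4. The day 4 signal was 1.34-fold lower in wild type and 1.96-fold lower in TLR4-/-. Across genotypes Itih4 fell by 0.70 ± 0.17 (SE, limma, lower in 2 of 2 genotypes, adjusted p = 0.0254). Its larger difference in TLR4-/-, by -0.55, is the residual of the additive model and has no test.

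These calls depended on which genes entered and on the model. Fits with 1 array left out had treatment alone in the model, so the genotype difference entered their estimates. Each also left a treatment with 1 array, so only the estimates are given here. Without the wild-type or the TLR4-/- untreated array, Itih1 was at -0.59 and -0.85, and Itih4 at -0.80 and -0.59. Without the wild-type or the TLR4-/- day 4 array, Itih1 was at -0.77 and -0.67, and Itih4 at -0.87 and -0.53. The estimates stayed negative throughout, from -0.85 to -0.59 for Itih1 and from -0.87 to -0.53 for Itih4. With all arrays kept, 5 of 9 other settings called Itih1 and 3 of 9 called Itih4. Neither was called when probe sets were fitted singly, where 1.3% of 17479 fell and 3.78% rose.

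Itih3, which encodes heavy chain 3, was below the filter. Its signal was 6.45 in wild-type and 6.92 in TLR4-/- untreated cells and 6.24 and 6.05 at day 4. As for Itih4, the highest and the lowest reading were the TLR4-/- arrays and both day 4 arrays were lowest. The day 4 arrays were 0.19 apart, and 0.21 separated the higher of them from the wild-type untreated array. Both were within the spread of 0.228, which comes from genes above the filter. The gap of 0.21 was wider than the spread of 0.192 over all genes. The bleomycin difference was -0.21 in wild type and -0.87 in TLR4-/-. In the fit without the filter the average was -0.54 ± 0.19 (SE), which did not pass (limma adjusted p = 0.228).

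Itih2, the gene of heavy chain 2, read 5.75 and 5.71 in wild type and 5.32 and 5.66 in TLR4-/-, untreated and at day 4. The TLR4-/- untreated array was the lowest by 0.34, and the other 3 lay within the spread of each other. Its bleomycin difference was therefore -0.03 in wild type and 0.34 in TLR4-/-, with an average of 0.15 ± 0.15 (SE, limma without the filter, adjusted p = 0.649). Itih2 was dim on all arrays, and without detection calls a reading of this size cannot be told from background.

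Ambp, the bikunin gene, read 6.76 and 6.70 untreated and 6.67 and 6.62 at day 4, in wild type and TLR4-/-. The whole range over the 4 arrays was 0.14, below the spread between 2 arrays. The bleomycin difference was -0.09 in wild type and -0.08 in TLR4-/- (average -0.09 ± 0.12, SE, limma without the filter, adjusted p = 0.774).

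Itih5 was read by 3 probe sets that did not move together. One, 1441946_at, was at 7.24 and 7.09 in wild type and at 6.75 and 6.84 in TLR4-/-, untreated and at day 4. Both TLR4-/- readings were below both wild-type readings there. The second, 1436755_at, was also lower in TLR4-/-, at 6.20 and 6.07 against 6.41 on both wild-type arrays. The third, 1429159_at, was dim at 3.87 to 4.12 and read above wild type in the mutant, by 0.26 in untreated cells and 0.10 after bleomycin. The mean of the 3 probe sets had a bleomycin difference of -0.04 in wild type and -0.06 in TLR4-/- and a limma adjusted p of 0.885 without the filter.

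**Figure D2:**
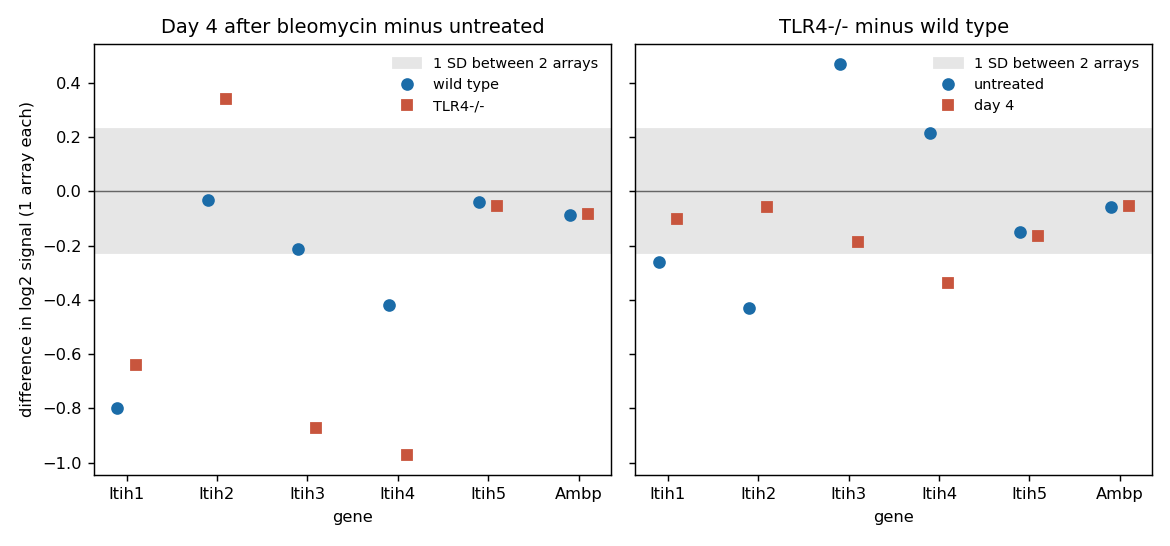
Difference in log2 signal (y axis) for each of the 6 genes (x axis), day 4 minus untreated on the left and TLR4-/- minus wild type on the right, with 1 array on each side of every difference and the grey band at 0.228, 1 SD of a difference between 2 arrays. Itih1 and Itih4 lie below the band in both genotypes on the left, Itih3 only in TLR4-/-, and on the right no gene lies outside the band on the same side in both treatments.

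Counted without regard to size, 5 of 6 members were lower after bleomycin in both genotypes, Itih2 being the exception, against 33.9% of all 18194 genes. By probe set the count was 4 of 8, because Itih5 was lower in both genotypes only as the mean of its 3 probe sets. The median difference of all genes was 0.00 in wild type and -0.03 in TLR4-/-. No member reached 2-fold in any of the 4 differences between arrays (0 of 6). Among all genes, 0.445% were at least 2-fold lower and 1.82% higher after bleomycin in wild type, and 0.775% lower and 1.88% higher in TLR4-/-. Between the genotypes 0.462% were at least 2-fold lower and 0.731% higher in untreated TLR4-/- cells, and 0.0495% lower and 0.0989% higher at day 4.

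Between the genotypes no member passed a test. Limma called 0 of the 9097 genes for genotype (0% lower, 0% higher), with 822 genes at an unadjusted p under 0.05. Itih1 was lower in TLR4-/- by 0.26 untreated and 0.10 at day 4, with an average of -0.18 ± 0.16 (SE, limma adjusted p = 0.797). For Itih4 the average was -0.06 ± 0.17 (limma adjusted p = 0.957), made of 0.21 untreated and -0.34 at day 4. Itih3 had the same order of signs, 0.47 untreated and -0.19 at day 4. At day 4 all 6 members were lower in TLR4-/-, by 0.05 to 0.34, and 51.8% of all genes were. Only Itih4 exceeded the spread of 0.228 in that comparison. In untreated cells 4 of 6 members were lower in TLR4-/-, against 46.3% of all genes, and Itih2 was the lowest with -0.43.

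The genes beside the chromosome 14 members were compared with them, taking the 4 nearest on each side that had a probe set. All 8 such genes passed the filter, and 1 rose and 0 fell after bleomycin, against 7.18% and 2.53% of all genes tested. The median of their average differences was 0.11. Gnl3, which encodes nucleostemin, a nucleolar protein of dividing cells, rose by 0.98 ± 0.16 (SE, limma, adjusted p = 0.00184). Stimate, the gene of an endoplasmic reticulum protein that regulates calcium entry, was the lowest neighbour. Its signal was 9.21 and 8.99 in wild type and 9.61 and 8.69 in TLR4-/-, untreated and at day 4. These differences of -0.22 and -0.93 are close to those of Itih3, and the average of -0.57 ± 0.18 did not pass (limma adjusted p = 0.0712). Mustn1, between Stimate and Itih4, differed by -0.27 and -0.01, and Nek4, next to Itih1, by 0.21 and -0.09.

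**Figure D3:**
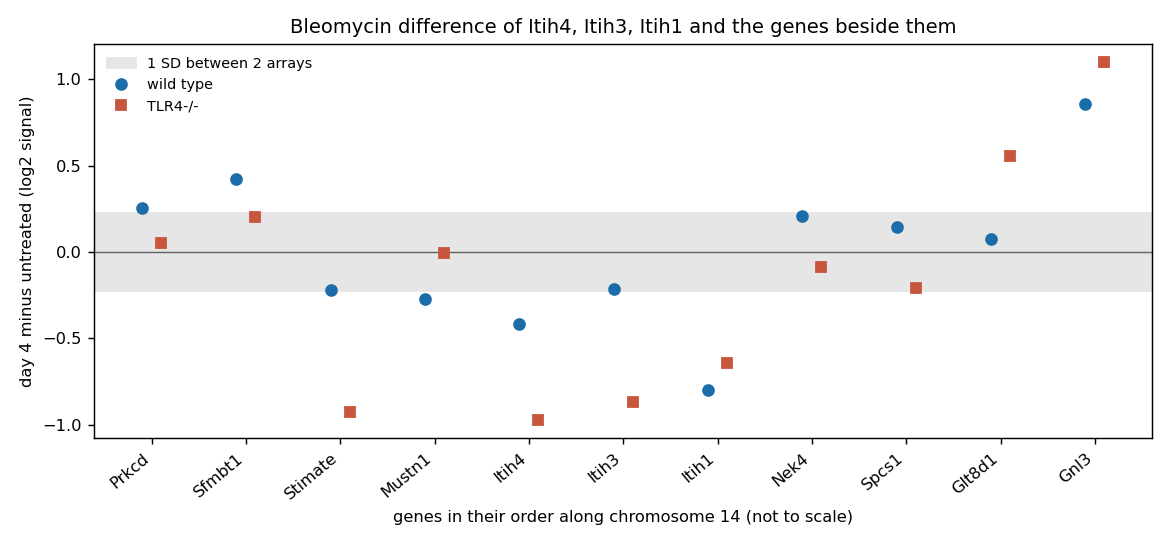
Day 4 minus untreated difference in log2 signal (y axis) for genes in their order along chromosome 14 (x axis, evenly spaced and not to scale), with circles for wild type, squares for TLR4-/- and the grey band at 0.228. The 3 Itih genes and Stimate are the only genes of this stretch whose TLR4-/- point lies below the band.

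Beside Itih2 and Itih5, 4 of 8 neighbours passed the filter and 0 were called, with average differences from -0.27 to 0.32. Beside Ambp 1 of 8 passed, the DNA polymerase subunit gene Pole3 at 0.24, which was not called (limma adjusted p = 0.408). Among the other Ambp neighbours, the acute phase gene Orm1 read 4.68 and 4.65 untreated and 8.24 and 8.47 at day 4, in wild type and TLR4-/-. Its mean was below the filter, and without the filter it rose by 3.69 ± 0.13 (SE, limma adjusted p = 0.00875). Orm1 thus differed widely between treatments on arrays where Ambp, the third measured gene from it on that side, ranged over 0.14.

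Genes whose 4 values were most like those of Itih1 and Itih4 were sought among the genes above the filter, by the root mean square distance between profiles centred on their own means. Over 4 arrays such a likeness is a description only. Nearest to Itih1 were Klhl24, a ubiquitin ligase adaptor gene that fell by 0.72 ± 0.16, Lrp2bp by 0.70 ± 0.15 and Proz, the gene of the plasma protein Z, by 0.66 ± 0.16, at distances of 0.01 to 0.04 (log2). Nearest to Itih4 were Mme, which encodes the peptidase neprilysin and fell by 0.68 ± 0.17, Tmem132d by 0.74 ± 0.17 and Zfp503 by 0.72 ± 0.17, at distances of 0.02 to 0.04. Their adjusted p-values in limma were 0.0123 to 0.0280. Itih1 and Itih4 were 0.19 apart, and Itih4 ranked 322 among the genes nearest to Itih1.

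Genes that make, break or bind hyaluronan were set beside the family. Of 29 listed, 28 were on the array and 10 passed the filter. Of these 1 rose and 0 fell, where 7.18% of all genes tested rose and 2.53% fell. Their median average difference was 0.03 against 0.04 for all genes past the filter. The riser was Stab1, a scavenger receptor of macrophages and sinusoidal endothelium, by 0.68 ± 0.17 (SE, limma adjusted p = 0.0257), which was not called in 7 of 11 other settings. Stab1 read 6.91 and 6.67 untreated, in wild type and TLR4-/-, and passed the filter through its day 4 signals of 7.34 and 7.59. Tnfaip6, whose product transfers heavy chains to hyaluronan, was below the filter and is named after its values were seen. It read 4.06 and 4.09 untreated and 5.12 and 5.05 at day 4, in wild type and TLR4-/-. Without the filter it rose by 1.01 ± 0.12 (SE, limma adjusted p = 0.0293), from readings near the bottom of the array's range. Of the genes of heavy chains 1 to 3, which TSG-6 can transfer, Itih1 fell, Itih3 did not pass and Itih2 averaged 0.15. A relation between Tnfaip6 and these genes was not tested.

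For the chondroitin sulfate chain that carries the heavy chains, 12 of 23 assembly genes on the array passed the filter. None was called for bleomycin (0 rose, 0 fell), and the median average difference was -0.05. The furthest were Chsy1, a chondroitin synthase gene, at -0.31 ± 0.16 (limma adjusted p = 0.2504), and Chpf, its partner, at -0.25 ± 0.16 (limma adjusted p = 0.363). Without the filter limma also called 0 of the 23.

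Of 13 other inhibitors of serine proteases past the filter, 3 rose and 0 fell, against 7.18% and 2.53% of all genes tested. Their median was -0.14. Serping1, the C1 inhibitor gene, rose by 1.70 ± 0.19, and Slpi, an antiprotease of airway and alveolar fluid, by 1.52 ± 0.16. Serpina3n, an acute phase serpin, rose by 1.37 ± 0.26 (SE, limma adjusted p of the 3 from 6.96e-05 to 0.00515). Serpina3n read 6.46 and 7.57 untreated and 8.56 and 8.21 at day 4, in wild type and TLR4-/-. Its day 4 signals helped it past the filter, so the count of risers partly follows from the filter. Serpina3n was not called in 7 of 12 other settings. The lowest was Serpind1, the gene of heparin cofactor II, at -0.23 in wild type and -1.02 in TLR4-/-, with an average of -0.63 ± 0.19 that did not pass (SE, limma adjusted p = 0.0584). Of the list's genes with a Kunitz domain, as bikunin has, 4 were past the filter and 0 were called. Their average differences were 0.27 for Spint1, -0.21 for Spint2, -0.44 for Aplp2 and -0.26 for App.

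In the list of serine proteases, 2 of 9 genes past the filter rose and 0 fell, against 7.18% and 2.53% of all genes tested. The median was 0.24. Of the 2 risers only F7, the gene of coagulation factor VII, encodes a protease. The other is F3, the gene of tissue factor, a receptor and cofactor of factor VII and no protease itself, which rose by 0.88 ± 0.16 (SE, limma adjusted p = 0.00348). F7 rose by 0.65 ± 0.16 (limma adjusted p = 0.0240), which was lost in 7 of 11 other settings. Plasma proteins made mainly in the liver had 9 members past the filter, of which 3 rose and 1 fell, with a median of -0.11. The shares of all genes tested were again 7.18% and 2.53%. Fetub rose by 1.54 ± 0.20, the complement gene Cfb by 1.38 ± 0.16 and Lcn2, an iron-binding defence protein, by 0.63 ± 0.15. Fetub read 6.56 and 6.60 untreated and passed the filter through its day 4 signals. Fgg, a fibrinogen chain gene, fell by 0.66 ± 0.16 (SE, limma adjusted p = 0.0248), as Itih1 and Itih4 did, and read 8.51 and 8.04 in wild type and 8.75 and 7.91 in TLR4-/-, untreated and at day 4. Fgg and Lcn2 were each lost in 8 of 12 other settings.

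**Figure D4:**
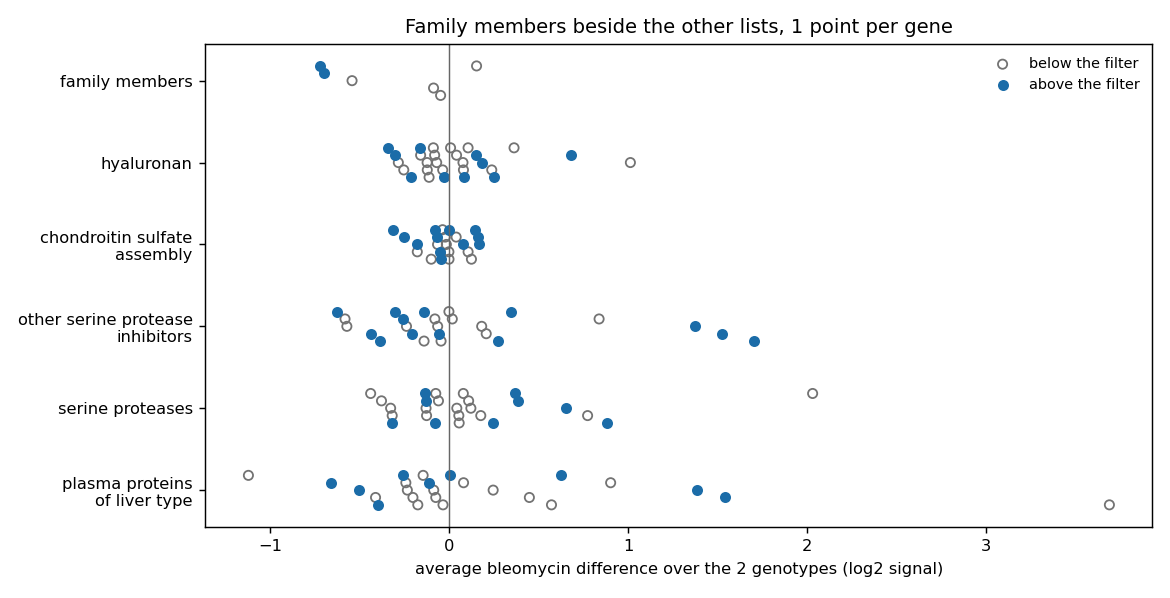
Average bleomycin difference over both genotypes in log2 signal (x axis) for every gene of the family and of 5 other lists (y axis, points spread within each row only for legibility), filled above the brightness filter and open below it. The 2 filled family points, Itih1 and Itih4, lie at -0.72 and -0.70, lower than any filled point of the other lists, of which the lowest is Fgg at -0.66.

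Markers of other cells moved beside these values. Of all genes tested 7.18% rose and 2.53% fell. Leukocyte and macrophage markers rose in 10 of 11 past the filter. C1qa, C1qc and Itgax were below 7.05 on both untreated arrays and passed through their day 4 signals, so that count partly follows from the filter. Over all 12 markers on the array the mean log2 level was 7.28 and 7.37 untreated and 8.73 and 8.97 at day 4, in wild type and TLR4-/-. Mesothelial markers rose in 3 of 3 past the filter, with means of 8.06 and 6.57 untreated and 8.97 and 8.65 at day 4. Of these, Gpm6a read 7.82 and 5.67 untreated, and its day 4 signals of 8.80 and 8.44 helped it past the filter. Over all 6 on the array the means were 6.82 and 5.78 untreated and 7.64 and 7.31 at day 4. AEC2 markers fell in 2 of 12 and rose in 0, namely Lgi3 by 0.69 ± 0.16 and the complement gene Hc by 0.59 ± 0.16 (SE, limma adjusted p = 0.0153 and 0.0358), and their mean went from 12.41 and 12.33 to 12.25 and 12.05. Sftpc, at 14.02 to 14.06, was near the top of the array's range. Ciliated cell markers fell in 2 of 3 past the filter, namely Dynlrb2 by 0.69 ± 0.15 and Tppp3 by 0.56 ± 0.16 (SE, limma adjusted p = 0.0149 and 0.0392). The third, Cfap126, and Foxj1, Tekt1 and Ccdc113 below the filter were lower at day 4 in wild type and higher in TLR4-/-. The mean of the 3 past the filter was 9.50 and 9.24 untreated and 8.89 and 8.97 at day 4, in wild type and TLR4-/-. Over all 6 on the array it was 7.926 and 7.465 untreated and 7.435 and 7.564 at day 4, higher at day 4 in TLR4-/-. Fibroblast markers rose in 1 of 2 past the filter, Col1a1 by 1.52 ± 0.16 (SE, limma adjusted p = 9.09e-05). Without the filter Col3a1 rose by 1.73 ± 0.12 and Col1a2 by 1.14 ± 0.13 (SE, limma adjusted p = 0.0142 and 0.0252). Pdgfra, Lum, Tcf21 and Mfap5, also below the filter, were not called. Club cell markers were called in 0 of 6, with means of 11.47 and 10.18 untreated and 11.02 and 10.83 at day 4, the untreated TLR4-/- array being the lowest. The 1 endothelial marker of 5 past the filter, Vwf, was not called (-0.21 in wild type, 0.85 in TLR4-/-). Pecam1, Cdh5, Kdr and Cldn5 were below the filter and had lower day 4 signals in each genotype. Pecam1 went from 7.27 to 6.45 in wild type and from 7.64 to 6.55 in TLR4-/-. Without the filter Pecam1 fell by 0.95 ± 0.14 (SE, limma adjusted p = 0.0407), and Cdh5, Kdr and Cldn5 were not called. In such pools fewer AEC2 and less Itih RNA per cell cannot be told apart. Of 7 hepatocyte markers 2 were past the filter and 0 were called. Alb read 7.70 and 7.37 untreated and 7.21 and 6.87 at day 4 (limma adjusted p = 0.0625), and Apoa2 read 7.10 to 7.23 on the 4 arrays. The other 5 were below the filter, among them Ttr at 4.90 to 5.02 and Ahsg at 6.27 to 6.48. The part of these cells in the fall of Itih1 and Itih4 was not tested.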

How the data were processed

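The authors deposited 1 value per probe set and array, read here as log2 signals from their range of 3.07 to 14.55 and the close array medians; the software, the normalization between arrays and detection calls are not given in the sources used here. RNA was amplified and biotin labelled before hybridisation, per the labels' protocols. Of 45101 probe sets, 34958 had 1 gene symbol, updated through RefSeq where the Entrez identifier was found (34754), and 932 with several and 9211 with none were left out. Probe sets were averaged per gene. Genes with a mean above the median of all genes entered limma's lmFit and eBayes (version 3.58.1, R 4.3.3; trend and robust off, treatment plus genotype, 1 residual degree of freedom per gene), with Benjamini-Hochberg adjustment over 9097 genes. That residual is the difference between the genotypes' responses, so a p-value measures this and not the spread of animals or pools. Differences between single arrays have no test. The filter's mean takes in all 4 arrays, so genes dim in untreated cells could enter through high day 4 signals. The step was tested on simulated data.

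The members and the lists were chosen with earlier results of these data known. Genes named were all members, list genes called by limma or else the 2 furthest in a list, the 3 genes nearest in profile to each tested member with a range above 0.5, and the 4 measured neighbours on each side; Tnfaip6, Serpind1, the Kunitz genes, Plau, Fga, Has2 and the markers named were chosen after their values were seen. The alternatives were quantile normalization, centring arrays on medians, the brightest probe set per gene, probe sets fitted singly and no filter or one at the 25th percentile. Others were trend or robust priors, 1 factor alone and leaving out each array. The fits that left out an array also had 1 factor alone, so they changed the model and the arrays together. Promoters were searched in the 250 bases before each start.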

Additional observations from a re-analysis of the deposited data

Results flagged for a closer look

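Differences of 3 members had opposite signs in the groups compared. With 1 array per group the contrasts below were not tested. Itih2 differed by -0.03 after bleomycin in wild type and by 0.34 in TLR4-/-, a contrast of 0.37, at signals below the filter. Itih3 differed between the genotypes by 0.47 in untreated cells and by -0.19 at day 4, a contrast of -0.66, and was also below the filter. Itih4 differed between the genotypes by 0.21 untreated and by -0.34 at day 4, a contrast of -0.55. For Itih2 and Itih4 one of the 2 differences was smaller than the spread of 0.228 between arrays, and for Itih3 that at day 4 was.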

How the results depend on the processing

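The fall of Itih1 kept its direction in all 13 alternatives and that of Itih4 in all 13. Itih1 was not called, at an unchanged -0.72, with the probe set of highest mean (limma adjusted p = 0.0646), with probe sets fitted singly (0.0502), without the filter (0.0652) or with treatment alone in the model (0.0572). Over the 9 alternatives with all arrays its adjusted p was 0.00966 to 0.0652. Itih4 was not called with arrays centred on their medians (-0.75, limma adjusted p = 0.0750) nor, at -0.70, with the probe set of highest mean (0.104), probe sets fitted singly (0.0767), no filter (0.126), the filter at the 25th percentile (0.0693) or treatment alone (0.0845), and its range was 0.00103 to 0.126. Leaving out 1 array gave -0.85 to -0.59 for Itih1 and -0.87 to -0.53 for Itih4. For genotype, the fits without 1 array had genotype alone in the model, so treatment was unbalanced and entered the estimates. Those of Itih1 and Itih4 ranged from -0.58 to 0.22 and from -0.55 to 0.42. They were positive without the wild-type untreated array (0.22 and 0.15) and without the TLR4-/- day 4 array (0.14 and 0.42). In these fits a genotype difference cannot be told apart from the bleomycin difference. Genes called higher after bleomycin numbered 653, and 271 with centring, 279 with the probe set of highest mean, 319 without the filter, 254 with treatment alone and 0 to 802 without 1 array. Genes called lower numbered 230, and 100, 62, 48 and 61 in those 4 settings, 138 with the filter at the 25th percentile and 0 to 227 without 1 array. No gene was called for genotype in any alternative (0). The single riser among hyaluronan genes was 0 with centring, the probe set of highest mean, probe sets fitted singly, the filter at the 25th percentile and treatment alone, and 0 to 1 without 1 array. The single fall among liver-type plasma proteins was likewise 0 in those 5 settings. Without the filter both counts stayed at 1, but the genes changed to Tnfaip6 and Fga. Stab1 (limma adjusted p = 0.119) and Fgg (0.104) were not called there. Serine proteases had 1 riser with centring, the probe set of highest mean and treatment alone. Without the filter they had 2, with Plau called and F7 not (limma adjusted p = 0.0989 for F7). Other inhibitors had 1 fall with a trend prior, and without 1 array 0 to 1 falls and 0 to 3 risers. The called genes above the filter that are named from the lists, the neighbours, the AEC2 markers and the nearest profiles kept their direction, and lost the call in 1 (Fetub) to 9 (Hc) alternatives. Of 90 differences between single arrays, or between responses, under 3 rescalings, 88 moved by less than 0.228; the other 2 were Itih5's with its brightest probe set. No paired analysis was possible because the labels number no replicates. The number of arrays limits the precision, and dim signals have no detection calls.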

Other observations

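Some dim genes near the family's biology stood apart on the day 4 arrays. Plau, which encodes the urokinase that turns plasminogen into plasmin, a protease that bikunin can inhibit, read 5.37 and 5.72 untreated and 7.54 and 7.61 at day 4, in wild type and TLR4-/-. In the fit without the filter it rose by 2.03 ± 0.14 (SE, limma adjusted p = 0.0142). Fga, the gene of another fibrinogen chain, read 6.08 and 6.31 untreated and 5.08 and 5.07 at day 4 and fell by 1.12 ± 0.13 there (SE, limma adjusted p = 0.0276). The hyaluronan synthase gene Has2 read 4.99 to 5.16 on all 4 arrays.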
